A study of Mus musculus with 8 samples.

Results

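Disc1 and 9 genes whose proteins bind it were followed in the hippocampus of 2 inbred mouse strains, BTBR and B6. The 10 genes, Disc1, Ndel1, Nde1, Pafah1b1, Pde4a, Pde4b, Pde4d, Fez1, Tnik and Pcm1, were taken by their names in the array files, out of 27373 names on non-control probes, and every probe that bore one of the names was used. They had 30 probes among 41174. BTBR mice, given in the labels as genotype BTBR T+ Itpr3tf/J, are an inbred strain studied as a model of autism-like behaviour, and they carry a deletion in Disc1. B6 mice were wild type C57BL/6J. Each strain was represented by 4 males aged 5 months, untreated, with whole hippocampal RNA from 1 mouse per single-color Agilent array. The labels also give C57BL/6J as the strain background of the BTBR samples, so the groups follow title and genotype. The strains differ across the genome, so an effect of the Disc1 deletion and an effect of any other strain variant cannot be told apart in this design.

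Disc1 is a scaffold protein without known enzyme activity, studied for its links to psychiatric illness and to the development of hippocampal neurons. Its partners fall into functional groups. Ndel1, Nde1 and Pafah1b1 (Lis1) regulate the dynein motor and neuronal migration. The phosphodiesterases Pde4a, Pde4b and Pde4d break down cAMP. Fez1 links cargo to the kinesin-1 motor in axons. Tnik is a kinase of synapses and of Wnt signalling, and Pcm1 is the scaffold of the centriolar satellites around the centrosome.

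Array probes are 60-base oligonucleotides, and what each one reads decides what can be said about its gene. Of the 30 member probes, 5 had a start and end in the files that lay further apart than the probe is long, so that they cross an intron. The Disc1 probes are shown because 2 of the 3 are of this kind, and their shared run of 21 bases, in capitals, is the longest between any pair of member probes. The positions are those of the mm9 build, all on the plus strand, at chr8:127678972-127742017, chr8:127689062-127742036 and chr8:127614273-127614332 in the order printed.
Disc1 A_51_P358872: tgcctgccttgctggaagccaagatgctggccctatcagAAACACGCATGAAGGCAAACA
Disc1 A_51_P164064: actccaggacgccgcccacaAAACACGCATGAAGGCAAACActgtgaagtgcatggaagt
Disc1 A_52_P592177: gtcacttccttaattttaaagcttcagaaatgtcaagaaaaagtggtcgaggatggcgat

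The files name transcript NM_174853 for A_51_P358872 and NM_174854 for A_51_P164064. Bases ahead of the shared run differ between these probes, so they read different upstream sequence joined to the same downstream sequence. Where the deletion lies relative to the probes was not determined here, and a probe outside the deleted stretch is no check of the strain labels. The other intron-crossing probes belong to Ndel1, Pde4d and Tnik. The Tnik and Pde4d probes are shown with a Pcm1 probe because the strain differences described below rest in part on them. They lie at chr3:28562951-28564621, chr13:110530748-110547805 and chr8:42414159-42414218, all on the plus strand of mm9.
Tnik A_52_P337948: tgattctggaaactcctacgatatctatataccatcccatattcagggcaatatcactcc
Pde4d A_52_P589745: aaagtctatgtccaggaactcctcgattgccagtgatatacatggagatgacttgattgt
Pcm1 A_52_P652645: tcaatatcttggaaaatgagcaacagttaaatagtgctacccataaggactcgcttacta

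Apart from the Disc1 junction probes, the longest run shared by probes of the same gene was 11 bases, and probes of different members shared at most 10. The GC content of the member probes ran from 23.3% to 53.3%, with a median of 43.3% for those tested and 41.7% for all probes tested.

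The 8 arrays had 56.8% to 71.9% of their probes well above background, and no member spot was saturated. Replicates 1 and 2 of each strain shared slide 1, and replicates 3 and 4 shared slide 2. Of 10 marker lists for cell types and tissues, the summed level of 5 thalamic genes was 97855 in BTBR replicate 1, against 10568 to 13746 in B6 and 11843 to 19099 in the other BTBR mice. The summed level of 5 striatal genes was 50975 in BTBR replicate 2, against 4754 to 16315 in B6. All 6 markers of hippocampal neurons were lower in BTBR on average, with a median difference of -0.76 (log2) and 0 of 6 called by limma. Their summed level was 12361 and 11477 in BTBR replicates 1 and 2, 35099 and 42966 in the other BTBR mice, and 28273 to 51713 in B6. General neuronal markers had a median difference of 0.03. Other arrays also stood apart: the summed level of 2 blood genes was 198298 in BTBR replicate 3, against 38197 to 77664 in all other mice, and that of 4 choroid plexus genes was 58795 and 56869 in BTBR replicates 1 and 2, against 13751 to 34672. Summed levels of 5 astrocyte genes were lower in all 4 BTBR mice, at 101016 to 126293, than in B6, at 134213 to 146026. BTBR replicate 3 was the lowest. Of the 5 genes, 1 was higher in BTBR on average, and the list's median difference was -0.24. Oligodendrocyte sums were 438831 and 500761 in BTBR replicates 1 and 2, 328148 and 274830 in replicates 3 and 4, and 336546 to 373541 in B6. Microglial sums were higher in all 4 BTBR mice, at 26043 to 31655, than in B6, at 21141 to 22533, but of the 5 microglial genes 1, Cx3cr1, was higher in BTBR on average, and the list's median difference was -0.05. Values without BTBR replicates 1 and 2 are therefore given below for each member. Those without BTBR replicate 3 are given for Pcm1 and Pde4b probes where it was the lowest BTBR array. Leaving out both replicates 1 and 2 removes every BTBR array of slide 1, while B6 arrays of both slides stay in. Values obtained that way thus mix slide with strain. The part of other tissue in the results was not tested beyond that.

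**Figure D1:**
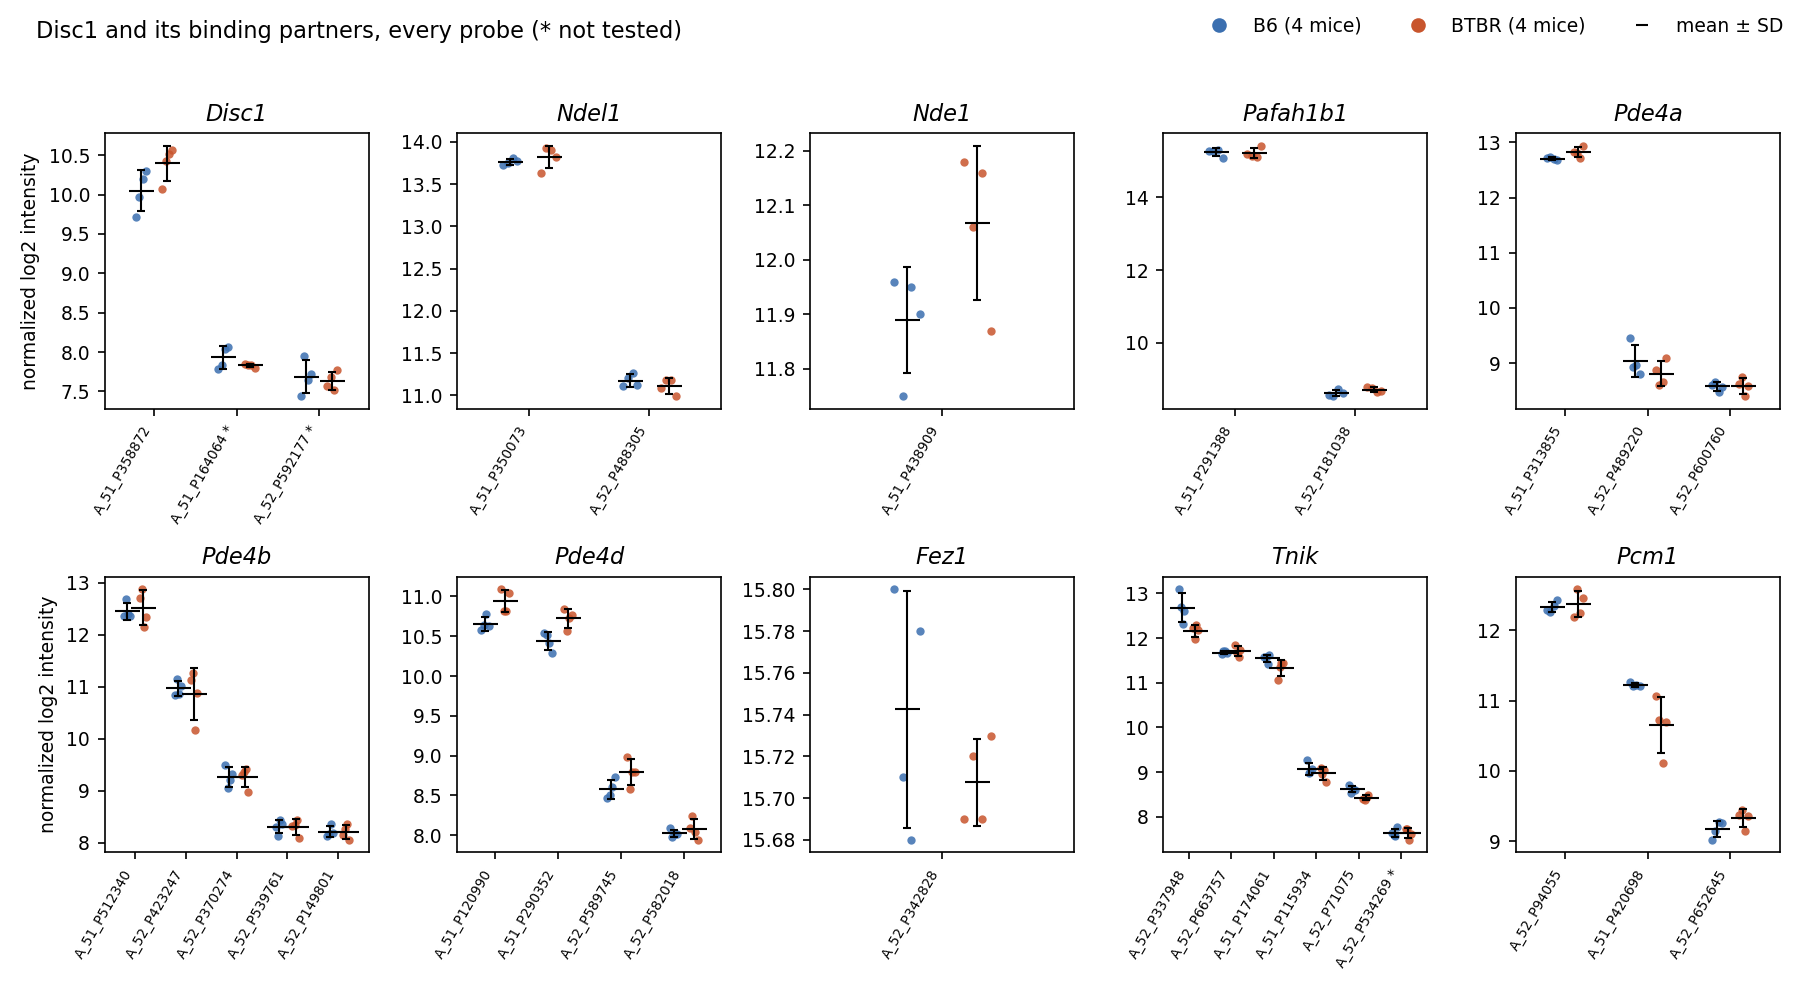
Normalized log2 intensity of each of the 30 member probes in the 4 B6 mice (blue) and the 4 BTBR mice (orange), 1 panel per gene; points are mice, horizontal bars are means and whiskers are SD. Levels of different probes are not comparable, and most pairs of clouds overlap, with separate clouds for 2 Pde4d, 2 Tnik and 1 Pcm1 probes.

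No member differed between the strains by the test across the array. Intensities were compared as normalized log2 values with limma, a linear model with moderated variances, and a probe was called when its Benjamini-Hochberg adjusted p over all 27982 tested probes was under 0.05. Tested probes were those well above background on at least 75% of the arrays of a strain. All 10 genes had a tested probe, and 27 of the 30 member probes were tested. Of these, 0 were called, where 7.61% of all tested probes were called (3.31% higher and 4.30% lower in BTBR), and the rank product, the test named in the study's methods, also called 0, where it called 3.94% of all probes. Adjusted p values of the members ran from 0.0856 to 0.991.

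Without adjustment, 7 of the 27 probes (25.9%) had a limma p under 0.05, beside 18.5% of all tested probes. Of the 7, 3 were higher and 4 were lower in BTBR. The 4 arrays of each strain did not overlap for 5 of the 27 (18.5%), beside 14.2% of all probes. Across the 27 the median difference was 0.01 and the median absolute difference 0.10 on the log2 scale, the same as over all tested probes. In all, 14 were higher in BTBR, 13 were lower, and 13 moved by less than 0.1. The spread was also that of the array at large, with a median standard error of 0.087 for members and 0.092 for all probes. The widest difference was 0.58 on the log2 scale.

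**Figure D2:**
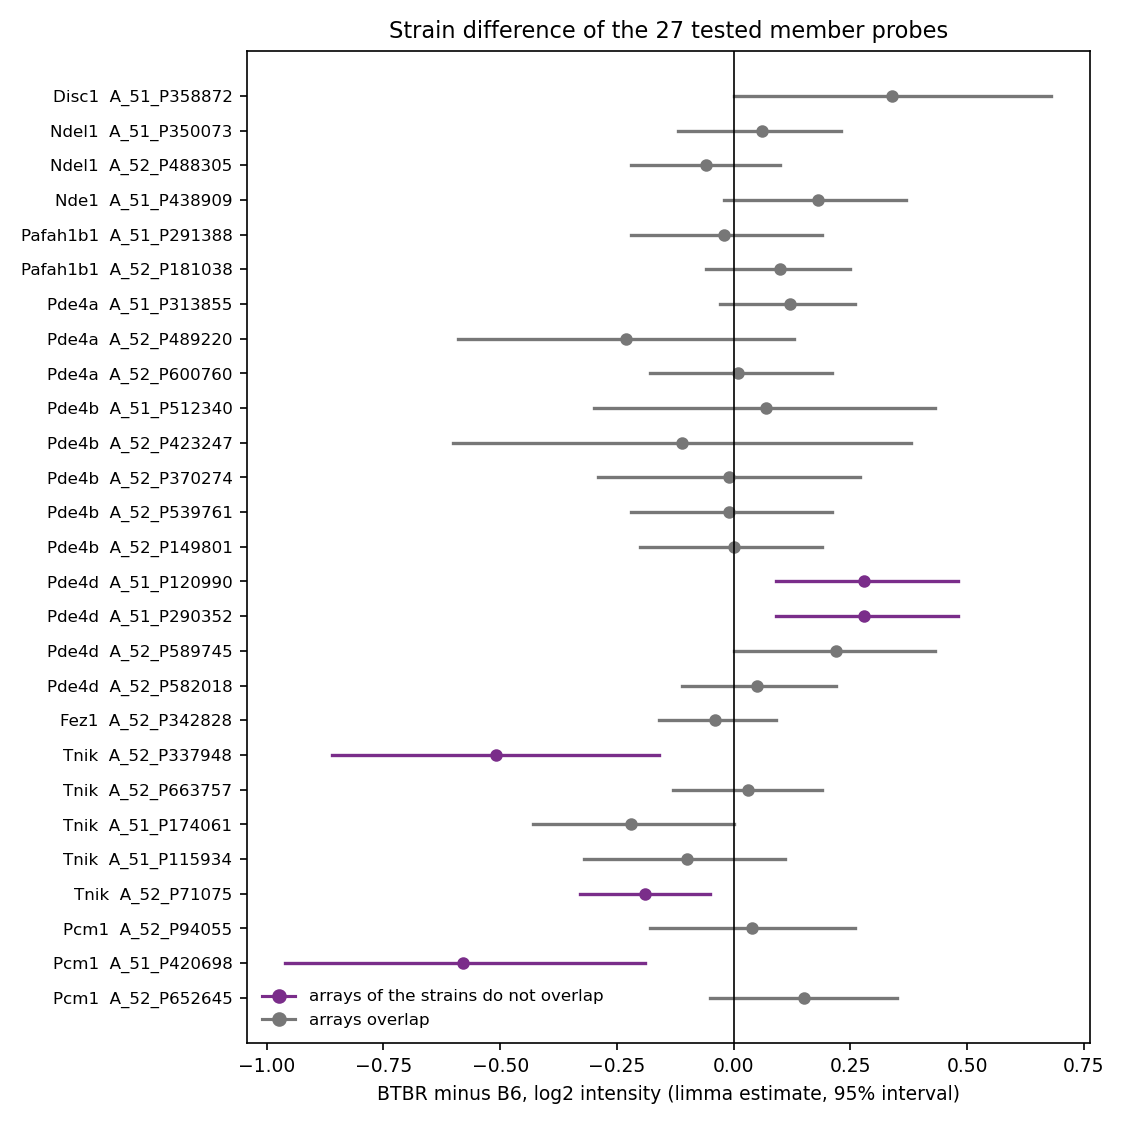
BTBR minus B6 difference (log2) of the 27 tested member probes, with its 95% interval from limma; purple marks the 5 probes whose strains do not overlap. Differences run from -0.58 for a Pcm1 probe to 0.34 for Disc1, and most intervals cross 0.

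The Disc1 transcript was detected in both strains. The probe A_51_P358872 was well above background on all 8 arrays, with log2 intensities of 9.72, 9.97, 10.20 and 10.30 in B6 replicates 1 to 4 and 10.07, 10.42, 10.52 and 10.57 in BTBR. The ranges overlapped, and the lowest array of each strain was on slide 1. Mean levels were 10.05 ± 0.26 in B6 and 10.39 ± 0.23 in BTBR (SD, n = 4), a difference of 0.34 ± 0.15 (SE) with a 95% interval of 0.00 to 0.68. Limma gave an adjusted p of 0.265, and the exact two-sided permutation test gave p = 0.1143. The smallest p that 4 against 4 arrays allow is 0.0286. Within slides it came to 0.40 (slide 1) and 0.29 (slide 2), and with the slide as a block its limma adjusted p was 0.07. It ran from 0.24 to 0.45 as each array was left out in turn. Without BTBR replicates 1 and 2 it was 0.49, with the B6 arrays of slide 1 kept. This probe was lower on slide 1 in both strains, and against B6 of slide 2 alone the same BTBR arrays gave 0.29.

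The other Disc1 probes were too dim to be tested. A_51_P164064 cleared background by the scanner's call in 2 of 4 B6 mice and in 0 of 4 BTBR mice. Its log2 intensities were 7.79, 7.83, 8.04 and 8.07 in B6 and 7.85, 7.84, 7.84 and 7.80 in BTBR. The means were 7.93 ± 0.14 in B6 and 7.83 ± 0.02 in BTBR (SD, n = 4), and the BTBR minus B6 difference was 0.03 on slide 1 and -0.24 on slide 2. The strains differed by less than the spread of the B6 arrays, and no fold is given. A_52_P592177 cleared background in no mouse, with 7.44 to 7.95 in B6 and 7.52 to 7.77 in BTBR, so no fold is given. With dim probes admitted, the limma adjusted p of these probes was 0.657 and 0.912.

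Regulators of dynein showed small differences. Ndel1 was read by A_51_P350073, with 13.77 ± 0.04 in B6 and 13.82 ± 0.13 in BTBR, and by A_52_P488305, with 11.17 ± 0.08 and 11.11 ± 0.09 (SD, n = 4). The differences, 0.06 (95% interval -0.12 to 0.23) and -0.06 (-0.22 to 0.10), lay on either side of 0, and both intervals held it. Nde1, the paralogue of Ndel1, was read by A_51_P438909 and had 11.96, 11.75, 11.95 and 11.90 in B6 and 12.18, 12.06, 12.16 and 11.87 in BTBR. Of its BTBR arrays, 3 were above all B6 arrays and 1 was within their range. The difference was 0.18 (-0.02 to 0.37), with a limma adjusted p of 0.333. Pafah1b1, which encodes Lis1, had a difference of -0.02 (-0.22 to 0.19) at A_51_P291388 and 0.10 (-0.06 to 0.25) at A_52_P181038. B6 replicate 4 was the lowest array of the first of these, at 15.07, and the other B6 arrays were at 15.28, 15.28 and 15.31. Without BTBR replicates 1 and 2 the differences were 0.10 and -0.08 for Ndel1, 0.12 for Nde1 and 0.03 at both Pafah1b1 probes.

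Of the phosphodiesterases, Pde4d came closest to a call. A_51_P120990, at chr13:110743427-110743486, had 10.58, 10.64, 10.78 and 10.63 in B6 and 11.09, 10.82, 10.82 and 11.04 in BTBR. A_51_P290352, at chr13:110744875-110744934, had 10.54, 10.51, 10.42 and 10.29 in B6 and 10.84, 10.56, 10.73 and 10.77 in BTBR. At both probes every BTBR array was above every B6 array. Each gave a difference of 0.28 ± 0.08 (SE; 95% interval 0.09 to 0.48), with a limma adjusted p of 0.091 and 0.0856 and an exact permutation p of 0.0286. The intron-crossing probe A_52_P589745 printed above had 8.47 to 8.73 in B6 and 8.58 to 8.98 in BTBR, a difference of 0.22 (0.00 to 0.43) with overlapping ranges and a limma adjusted p of 0.279. A_52_P582018, above background on 3 of 4 arrays of each strain, differed by 0.05 (-0.11 to 0.22).
All 4 Pde4d probes were thus higher in BTBR on average. The median over these probes, taken on each array, differed by 0.25 with a limma adjusted p of 0.0897. It is the mean of A_51_P290352 and A_52_P589745, the probes of middle intensity, and does not summarize all 4. On slide 1 the differences of A_51_P120990 and A_51_P290352 were 0.34 and 0.18, and on slide 2 they were 0.22 and 0.39. Without BTBR replicates 1 and 2 they were 0.27 and 0.31, and those of A_52_P589745 and A_52_P582018 were 0.23 and -0.03. A_51_P290352 passed the threshold when BTBR replicate 2 was left out, with a difference of 0.34 and a limma adjusted p of 0.0481.

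Pde4a and Pde4b, which hydrolyse the same messenger, gave differences on both sides of 0. The Pde4a probes differed by 0.12 (-0.03 to 0.26), -0.23 (-0.59 to 0.13) and 0.01 (-0.18 to 0.21). The value of -0.23, at A_52_P489220, was -0.45 on slide 1, -0.01 on slide 2 and -0.09 without B6 replicate 1. Without BTBR replicates 1 and 2 the Pde4a differences were 0.13, -0.16 and -0.08. The narrowest of these intervals is that of A_51_P313855, whose B6 arrays lay between 12.68 and 12.74 and whose BTBR arrays lay between 12.72 and 12.94. The 5 Pde4b probes differed by 0.07, -0.11, -0.01, -0.01 and 0.00, with the widest interval, -0.60 to 0.38, at A_52_P423247. BTBR replicate 3 stood at 10.16 for that probe, and the other BTBR arrays ran from 10.88 to 11.27. Without that array the difference was 0.12 (limma adjusted p = 0.565). The probe lies at chr4:102277888-102277947 and A_51_P512340 at chr4:102278153-102278211, with no base in common. At A_51_P512340 the BTBR arrays had 12.71, 12.87, 12.14 and 12.34, so replicate 2 was highest and replicate 3 lowest at both probes, on either side of the B6 arrays at 12.35 to 12.68. Without BTBR replicate 3 this probe differed by 0.19. With BTBR replicates 1 and 2 left out, A_52_P423247 differed by -0.44 (limma adjusted p = 0.302), A_51_P512340 by -0.21 and the others by -0.08, -0.04 and 0.00.

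Fez1, the kinesin-1 adaptor, was read by A_52_P342828. It had 15.80, 15.71, 15.68 and 15.78 in B6 and 15.69, 15.72, 15.69 and 15.73 in BTBR. The BTBR values lay inside the B6 range. The difference was -0.04 with a 95% interval of -0.16 to 0.09, and its limma adjusted p was 0.806. It was -0.03 without BTBR replicates 1 and 2.

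Tnik had 6 probes, of which 5 were tested. The intron-crossing A_52_P337948 had 13.09, 12.70, 12.31 and 12.60 in B6 and 12.22, 11.97, 12.29 and 12.17 in BTBR. B6 replicate 3 lay close to the BTBR arrays, the other B6 arrays lay clearly above them, and the strains did not overlap. The difference was -0.51 ± 0.15 (SE; 95% interval -0.86 to -0.16), 1.43-fold lower in BTBR, with a limma adjusted p of 0.0916 and an exact permutation p of 0.0286. It was -0.80 on slide 1 and -0.22 on slide 2, and -0.44 (limma adjusted p = 0.308) without BTBR replicates 1 and 2. With single arrays left out it ran from -0.37 without B6 replicate 1 (limma adjusted p = 0.144) to -0.63 without B6 replicate 3 (limma adjusted p = 0.0367), and only the latter was called.
A_52_P71075, at chr3:28566309-28566368, had 8.70, 8.53, 8.63 and 8.60 in B6 and 8.40, 8.38, 8.44 and 8.49 in BTBR. The strains again did not overlap. Its difference was -0.19 (-0.33 to -0.05), with a limma adjusted p of 0.118. A_51_P174061 differed by -0.22 (-0.43 to 0.00), A_51_P115934 by -0.10 (-0.32 to 0.11) and A_52_P663757, at chr3:28569035-28569094, by 0.03 (-0.13 to 0.19). For A_51_P174061 the value was -0.36 on slide 1 and -0.07 on slide 2, and it was -0.13 without BTBR replicate 1. Without BTBR replicates 1 and 2 the differences of A_52_P71075, A_51_P174061, A_51_P115934 and A_52_P663757 were -0.15, -0.10, -0.16 and -0.02. A_52_P663757 stood at 11.67 ± 0.03 in B6 and 11.71 ± 0.12 in BTBR (SD, n = 4), and did not share the lower BTBR level. A_52_P534269 cleared background in no mouse and had a mean of 7.64 in each strain. Over the tested Tnik probes, 4 of 5 were lower in BTBR on average. The median over the probes differed by -0.22 (limma adjusted p = 0.262). On every array that median was A_51_P174061, the probe of middle intensity, so it repeats this probe and does not summarize the 5.

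Pcm1 gave the widest difference of any member at 1 of its 3 probes. A_51_P420698, at chr8:42417524-42417583, had 11.26, 11.20, 11.22 and 11.21 in B6 and 11.07, 10.72, 10.11 and 10.70 in BTBR. The B6 arrays were nearly equal and every BTBR array was below them, but the BTBR arrays were spread out, with replicate 3 lowest and replicate 1 nearest to B6. The rank product gave this probe an estimated proportion of false predictions of 0.0913. The difference was -0.58 ± 0.17 (SE, 95% interval -0.96 to -0.19), 1.49-fold lower in BTBR. Its limma adjusted p was 0.0882 and its exact permutation p 0.0286.
It was -0.34 on slide 1 and -0.81 on slide 2. Leaving out BTBR replicate 1 made it -0.71 (limma adjusted p = 0.0258), leaving out BTBR replicate 3 made it -0.40 (limma adjusted p = 0.047), and leaving out BTBR replicates 1 and 2 made it -0.82 (limma adjusted p = 0.0212), so that the call depends on the BTBR arrays kept. The Pcm1 probe A_52_P94055 differed by 0.04 (-0.18 to 0.26). A_52_P652645, printed above, had 9.02, 9.15, 9.27 and 9.26 in B6 and 9.37, 9.44, 9.14 and 9.36 in BTBR. Its difference was 0.15 (-0.05 to 0.35), and 0.21 without BTBR replicate 3, its lowest BTBR array. Without BTBR replicates 1 and 2 the differences of A_52_P94055 and A_52_P652645 were 0.02 and 0.08.

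**Figure D3:**
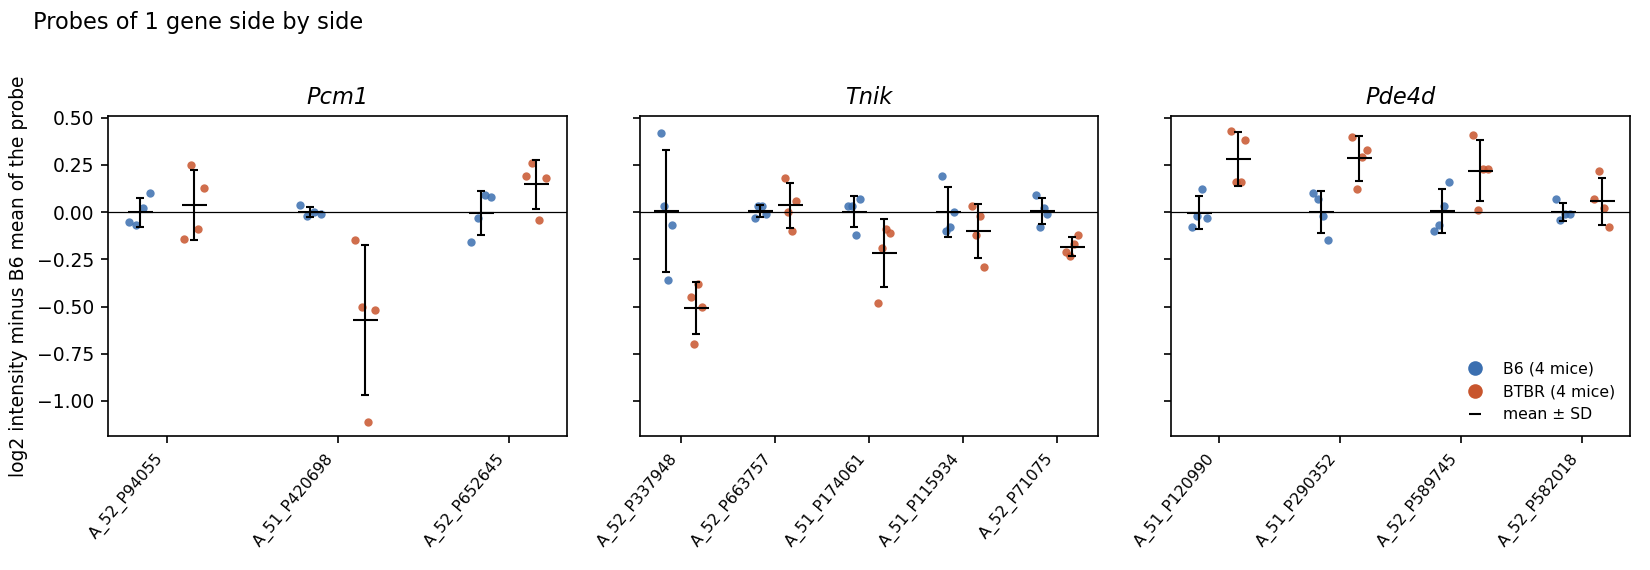
Log2 intensity of each tested Pcm1, Tnik and Pde4d probe minus that probe's B6 mean, with 4 mice per strain as points, the mean as a bar and SD as whiskers. The Pcm1 probe A_51_P420698 lies 0.58 below B6 while both other Pcm1 probes lie at or above 0, and the 4 Pde4d probes lie on 1 side.

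Whether probes of a gene showed the same strain difference was tested on the difference between probes, array by array. Over the members there were 34 pairs of tested probes within a gene, and in the exact permutation test 0 had an adjusted p under 0.05 over these pairs. Since an exact p cannot go below 0.0286 here, many pairs would have to reach it together before any could pass, so this count of 0 says nothing about whether probes of a gene moved alike. The Pcm1 probes A_51_P420698 and A_52_P652645 were the 1 pair that reached the smallest exact p, 0.0286 (adjusted 0.324). Their strain differences were 0.73 apart, a value of -0.73 for the first minus the second. Limma fitted to all 13526 same-name probe pairs of the array, a comparison added after the values were seen, gave this pair an adjusted p of 0.0086. It was 1 of 34 member pairs so called, beside 8.69% of all pairs. The lower Pcm1 probe against A_52_P94055 gave a limma adjusted p of 0.0752. For Tnik, A_52_P337948 against A_52_P663757 differed by -0.54 between strains, with a limma adjusted p of 0.084.

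**Figure D4:**
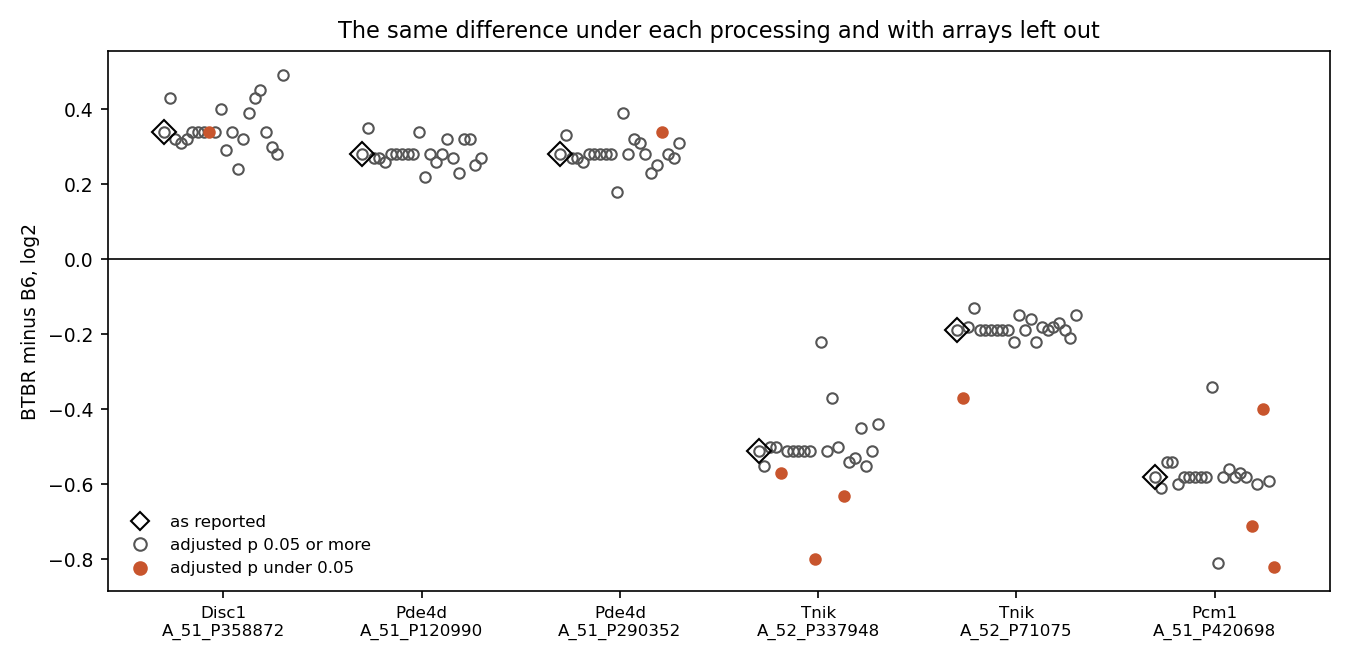
BTBR minus B6 difference (log2) of 6 member probes as reported (diamond), under each other processing and with arrays left out (circles); filled circles have a limma adjusted p under 0.05. The direction of each of the 6 is kept throughout, and 5 of them have at least 1 filled circle.

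Genes that work beside the members were counted by gene, with the tested probe of highest mean intensity of each, on 5 lists. By this rule 7.82% of all gene names were called. Of 23 genes of the dynein, dynactin and Lis1 pathway, 2 were called higher and 0 lower, with a median difference of 0.03. Nudc, a chaperone that acts with Lis1, had 15.71 to 15.81 in B6 and 16.52 to 16.76 in BTBR, a rise of 0.89 (limma adjusted p = 4.93e-05). Ywhae, the 14-3-3 epsilon protein that protects phosphorylated Ndel1, rose by 0.43 (limma adjusted p = 0.0122) at the probe used, while its other probe differed by -0.34 (limma adjusted p = 0.11).

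Of 19 centrosome and centriolar satellite genes, 1 was called higher and 2 lower, with a median of 0.05. Cep63, a centriole duplication protein, fell by 0.94 on the log2 scale (limma adjusted p = 0.000847), and its other probe differed by -0.36 (limma adjusted p = 0.0524). Ttc8, a subunit of the BBSome, which associates with Pcm1, fell by 1.98 (limma adjusted p = 0.0201), with B6 arrays from 9.11 to 10.97 and BTBR arrays from 7.71 to 8.80, of which 3 were well above background. The Ttc8 call was lost with the processed signal (difference -3.33, limma adjusted p = 0.0797), without BTBR replicate 1 (-1.97, 0.054), with BTBR replicates 1 and 2 both left out (-2.13, 0.081) and without B6 replicate 2, 3 or 4 (-1.81, -1.92 and -1.79, with 0.0642, 0.0653 and 0.0635). The microtubule protein Map1a rose by 0.51 (limma adjusted p = 0.00351) at the probe used, and its 3 other probes differed by 0.11, 0.11 and -0.01.

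Among 30 genes of cAMP signalling and other phosphodiesterases, 1 was called, and 23 of 30 (76.7%) were higher in BTBR on average, with a median of 0.10, beside 52.9% of all gene names and a median of 0.01. Without BTBR replicates 1 and 2 these were 18 of 30 and 0.06, beside 51.0% and 0.00. The 4 genes of the list with the widest BTBR spread were Pde10a, Adcy5, Pde1b and Pde7b (SD 0.73 to 1.32, n = 4). Each was highest in BTBR replicate 2, the array with the highest striatal marker sum, where Adcy5 stood at 13.44 against 11.17 to 11.90 in the other BTBR mice. The called gene was Prkar1a, the type I alpha regulatory subunit of protein kinase A, which is activated by the cAMP that Pde4 enzymes remove. It had 12.13, 12.24, 12.19 and 12.25 in B6 and 14.02, 13.84, 13.77 and 13.93 in BTBR, 3.22-fold higher (log2 difference 1.69, limma adjusted p = 1.1e-06). The strains were separated by far more than their spread, which was the case for no member. With the slide as a block Adcy7, an adenylyl cyclase, was called too, with a difference of 0.54 (limma adjusted p = 0.0183, and 0.093 without the block), but without BTBR replicates 1 and 2 it was 0.24 (0.301). The 18 Wnt and kinase partners had 0 called genes and a median of 0.00, and with the slide as a block Zfp365, a zinc finger protein that binds Disc1, was called at a difference of -0.31 (limma adjusted p = 0.0483, and 0.0745 without the block). The Zfp365 difference without BTBR replicates 1 and 2 was -0.40 (limma adjusted p = 0.0584). Lastly, the 16 kinesin-1 and cargo genes had 0 called, a median of 0.08 and 13 higher in BTBR on average (12 without BTBR replicates 1 and 2).

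Genes around Disc1 on chromosome 8 were also compared. The strain haplotypes of this region were not examined, so a link between these differences and Disc1 was not tested. Within 1000000 bases of the nearest Disc1 probe there were 37 probes of 25 other gene names, and 33 of these probes were tested. Of the 33, 3 (9.09%) were called, beside 7.61% over the array, and all 3 were lower in BTBR. Fam89a fell by 1.35 on the log2 scale (limma adjusted p = 3.18e-06), from 9.28 to 9.37 in B6 to 7.85 to 8.09 in BTBR, where 3 of 4 arrays were well above background. Arv1, a sterol homeostasis protein, fell by 1.03 (limma adjusted p = 2.82e-05), with 9.95 to 10.20 in B6 and 8.99 to 9.15 in BTBR. A probe of 2310022B05Rik fell by 0.77 (limma adjusted p = 0.000144), and the gene's other probe differed by 0.26 (limma adjusted p = 0.522). Tsnax, the gene next to Disc1 among the probes measured, differed by 0.07 (limma adjusted p = 0.669), and Sipa1l2, on the other side, by -0.20 (limma adjusted p = 0.572).

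**Figure D5:**
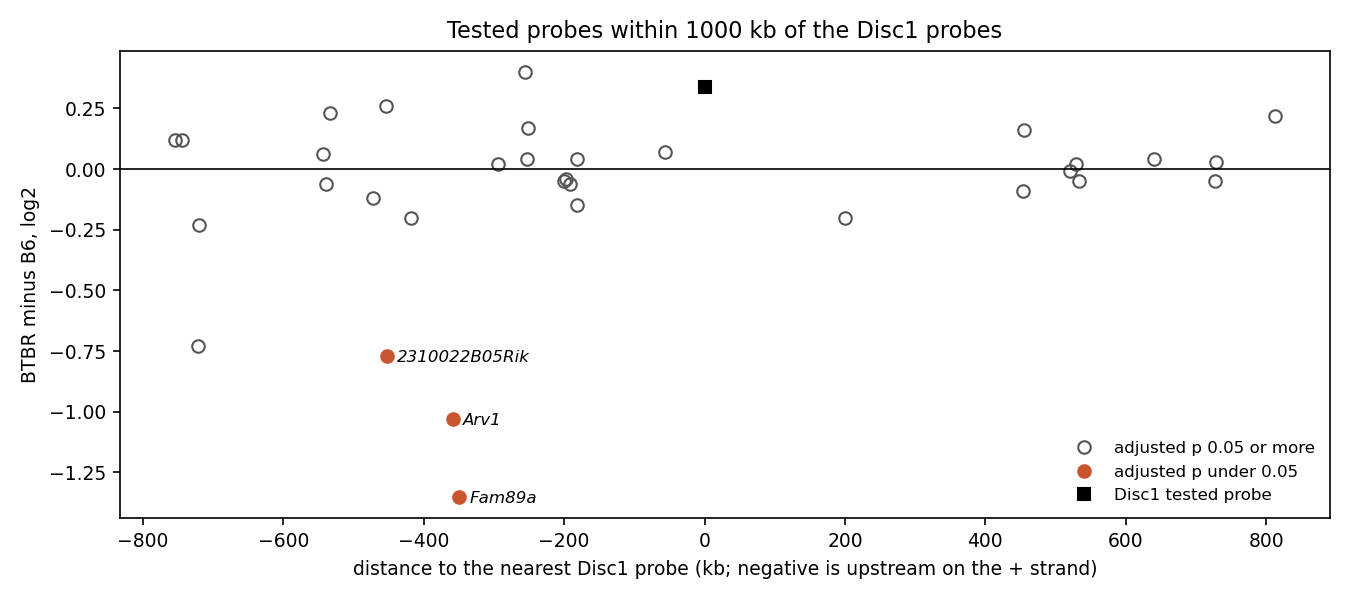
BTBR minus B6 difference (log2) of the 33 tested probes within 1000000 bases of the Disc1 probes, against the distance from the nearest of them in kb; filled circles have a limma adjusted p under 0.05 and the square is the tested Disc1 probe. The 3 called probes, at differences of -1.35, -1.03 and -0.77, lie on the side of Disc1 that holds most of the tested probes.

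The genes whose pattern over the 8 arrays was most like that of the Disc1 probe A_51_P358872 were sought among 18398 other names, by the root mean square difference of log2 values centred on each gene's own mean. Sbk1 was nearest at 0.085, followed by 2810006K23Rik at 0.101 and Rsl1 at 0.101. Their strain differences were 0.26, 0.26 and 0.31, beside 0.34 for Disc1. None was called by limma, with adjusted p values of 0.388, 0.341 and 0.133. The pattern includes the strain difference, so values near those of Disc1 followed from the choice of genes.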

How the data were processed

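Hippocampal RNA of 4 BTBR and 4 B6 mice was measured on 8 single-color arrays. The intensity values are those the authors deposited, read with Feature Extraction (9.1 in the labels and 10.7.3.1 in the file headers). The authors' deposited log2 matrix, background subtracted and quantile normalized, served as an alternative, and the spot flags are as the authors deposited them. From the mean intensity of each spot its median local background was taken away, with a floor of 0.5 and an offset of 50, and the arrays were quantile normalized on the log2 scale. Replicate spots were summarized by their median. Controls, 154 outlier-flagged probes and probes well above background on under 75% of the arrays of each strain were left out. Limma 3.58.1 (R 4.3.3) fitted strain alone. The rank product used 100 permutations and a limit of 0.05 on the estimated proportion of false predictions. Each test was run on its own simulated data, with 200 of 27982 probes changed by 2 (log2). With each probe's own SD, limma recovered 195 with 10 false calls. With the same SD for all probes, the rank product recovered 200 with 0. These runs do not compare the tests, and differences of the size seen for members, at most 0.58, were not simulated. The array number limits precision. The mice were bred in-house from purchased stock.

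Members, lists and tests were chosen with earlier results of these data known. Named were all members with every probe, up to 3 called genes with the smallest p from each list and from the region of Disc1, and the 3 genes most like Disc1. Further probes of these genes, Tsnax, Sipa1l2, Pde10a, Adcy5, Adcy7, Pde1b, Pde7b, Zfp365 and Eif3h were named after their values were seen. Alternatives were the processed signal, normexp, the deposited matrix, median centring, other filters, replicate or slide as a block, each slide alone, trend and robust options, a stricter threshold, the median over probes, and arrays left out. The 10 marker lists were hippocampal neuron, neuron, astrocyte, oligodendrocyte, microglia, choroid plexus, thalamus, striatum, meninges and blood. Gene models and BTBR sequence were not used here, so exons, UTRs and mismatches under the probes were not examined.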

Additional observations from a re-analysis of the deposited data

Results flagged for a closer look

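In 2 of 54 groups of 4 arrays (3.7%), 1 array stood apart from the other 3 by Dixon's criterion, which chance meets in about 1 group in 20. For Pafah1b1 A_51_P291388, B6 replicate 4 was at 15.07 and the nearest B6 array at 15.28, a gap of 0.847 of the range. For Pde4b A_51_P512340, B6 replicate 2 was at 12.68 and the nearest at 12.39, a gap of 0.878 of the range.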

How the results depend on the processing

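The count of called member probes, and of members with a called probe, was 0 as reported and 1 with the processed signal (Tnik A_52_P71075, -0.37), median centring (Tnik A_52_P337948, -0.57), the replicate number as a block (Disc1 A_51_P358872, 0.34, limma adjusted p = 0.038), slide 1 alone (Tnik A_52_P337948, -0.80) and without BTBR replicates 1 and 2 (Pcm1 A_51_P420698). It ran from 0 to 1 as arrays were left out, with 1 without B6 replicate 3 and without BTBR replicate 1, 2 or 3. The cause was not tested. Same-numbered mice of the strains shared a slide, as did the other number on it, but the labels do not pair them, their deviations correlated at -0.14, 0.51, -0.10 and 0.39, and 2 of 4 correlated best with their own number. The block took the calls over all probes from 2129 to 1650. These were 1036 on slide 2 and 1196 at a limma adjusted p under 0.01. Rank product calls of members ran from 0 to 1 (1 without BTBR replicate 1). With arrays left out, the cAMP list ran from 1 to 2 called genes (2 without BTBR replicate 3, Adcy7 gained) the Wnt and kinase list from 0 to 1 (Zfp365 without BTBR replicate 1, Eif3h without BTBR replicate 3) and the centrosome list from 2 to 3 (Ttc8 lost, also with the processed signal). With the slide as a block, 0 member probes, 2 genes of the cAMP list (Adcy7 gained) and 1 of the Wnt and kinase list (Zfp365 gained) were called. Pairs of probes gave 1 call with limma over all pairs. Signs turned, with a shift beyond the SD within strains, for Pafah1b1 A_52_P181038 (-0.03) and Pcm1 A_52_P652645 (-0.01) on slide 2. They did so for Pde4b A_51_P512340 without BTBR replicates 1 and 2 (-0.21). With the median over probes, which follows the probe of middle intensity, they did so for Pde4a (-0.19) and Pcm1 (-0.58). That probe is A_51_P420698 for Pcm1 and, on most arrays, A_52_P489220 for Pde4a. Turns within that SD included Pde4b A_52_P423247 (0.21 on slide 1) and A_51_P512340 (-0.14 on slide 2). In all, 42 of 564 pairs of probe and setting changed sign, over 13 probes whose reported difference was at most 0.15, and 14 probes kept their sign throughout. The dim Pde4d A_52_P582018 reached 0.78 with the processed signal.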

Other observations

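Some genes on the marker lists passed the limma test. The microglial receptor Cx3cr1 was 1.41 higher in BTBR on the log2 scale (limma adjusted p = 1.11e-05), and Itgam was lower by a difference of -0.40 (limma adjusted p = 0.0127). The astrocyte filament gene Gfap had a difference of -1.30 (limma adjusted p = 0.00143), with 13.83 ± 0.24 in B6 and 12.53 ± 0.31 in BTBR (SD, n = 4). The called genes were 1 of 5 on the astrocyte list, 2 of 5 on the microglia list and 0 of 5 on the oligodendrocyte list, whose median difference was 0.08. The choroid plexus, meninges and blood lists had 0 called genes, with medians of 0.38, 0.37 and 0.31, and the thalamus and striatum lists had 0 called with medians of 0.91 and 0.73.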
